A study of Mus musculus with 5 samples.

Results

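The genes described here are 10 components of Notch signaling and of entry into the T lineage, namely the receptors Notch1, Notch2 and Notch3, the nuclear effector Rbpj, the Notch target genes Hes1, Dtx1, Nrarp and Ptcra, and the T lineage transcription factors Tcf7 and Gata3. They were chosen by gene symbol, and every transcript row carrying such a symbol was taken. The 10 genes have 12 rows among the 26531 rows (22098 symbols) of the expression table. Rbpj has 3 rows and each other gene has 1.

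RNA was measured in Hardy fraction A cells, the earliest fraction of the B lineage in Hardy's scheme, sorted without removal of other lineages from marrow of C57BL/6 mice that were 6 to 7 weeks old. There was 1 library from mice with the genotype Ikaros_ZnF4-/- (dF4, described by the submitters as having low coverage), 2 libraries from Ikaros_ZnF1-/- mice (dF1) and 2 from wild-type mice (wt). Ikaros is a DNA-binding regulator of lymphoid cells with several zinc fingers, and the mutants are named for finger 4 and finger 1. The dF1 libraries are biological replicates according to the design text. It is not said how many mice each library holds or whether separate mice gave the wt libraries, so the p-values reflect no more than the spread among these samples, possibly technical in wt.

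Notch receptors are bound by ligands on neighbouring cells, cut by an ADAM protease and by gamma-secretase, and release an intracellular domain that joins the DNA-binding protein RBPJ to switch on target genes. In lymphoid progenitors that reach the thymus, Notch1 signaling sets the T cell fate, and the transcription factors TCF-1 (Tcf7) and GATA3 act early in that program. Lymphoid progenitors without that signal can take the B cell fate in the bone marrow. Ikaros is known to bind DNA sites with the core TGGGAA, which is also the core of the RBPJ site, and to restrain Notch target genes in developing T cells.

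The values are RPKM (reads per kilobase and per library size), as the authors deposited them to 1 decimal. The dF4 library came from about 597000 reads by an estimate from its lowest values, so for it the estimated number of reads is given with an exact 95% Poisson interval that covers counting error only. The depth of the dF1 and wt libraries is unknown. Summed over transcripts the libraries ranged from 286080.2 to 345446.0 RPKM. Xist (NR_001463), which is expressed in females, was listed at 0 in dF4 and dF1 replicate 2 and lay between 77.7 and 93.2 RPKM in the other libraries. The label calls the cells sorted proB cells. Over 12 early B lineage markers the summed level was 1175.0 RPKM in dF4, 566.1 and 537.5 in dF1, and 680.7 and 461.1 in wt. Over 13 markers of plasmacytoid dendritic cells (pDCs) it was 593.9 RPKM in dF4, 4223.0 and 4766.0 in dF1, and 4493.0 and 4943.0 in wt, above the early B lineage sum in each dF1 and wt library. Of the 12 early B lineage markers, dF4 was the highest library for 8 and the lowest for 3 (Blnk, Vpreb2 and Dntt). Over all transcripts averaging 1 RPKM or more these shares were 40.3% and 38.1%. Vpreb2 was listed at 0 in dF4, where 3 reads would amount to 11.7 RPKM for it, above every other library. Its place as lowest was therefore not detectable at this depth. The sum of 10 neutrophil markers was 31030.0 RPKM in dF4, 211.8 and 802.0 in dF1, and 377.6 and 1019.0 in wt. In such bulk samples fewer cells of a type and less RNA per cell cannot be told apart.

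Between dF1 and wt no member passed the test. The dF1 and wt libraries were compared with limma on log2(RPKM + 1) over 12213 transcripts, those averaging 1 RPKM or more across the 5 libraries, and p-values were adjusted over all of them by Benjamini-Hochberg. Of the 12 member rows 9 entered the test, 1 for each gene but Ptcra. Of these rows 0 of 9 passed, with limma adjusted p between 0.682 and 0.972, and of all transcripts 0 of 12213 did (0% called). At an unadjusted p under 0.05, 1 of the 9 members was found (Nrarp) and 875 of all transcripts, or 7.16%. In the single dF4 library the members went both ways: Notch1, Notch2, Notch3 and Nrarp were below all 4 other libraries, and Hes1, Dtx1, Tcf7 and Gata3 above them. Of all tested transcripts 38.1% were below all 4 others in dF4 and 40.3% above. Dtx1 entered the test only through dF4, and the dF4 counting intervals of Nrarp and Gata3 included values of other libraries.

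**Figure D1:**
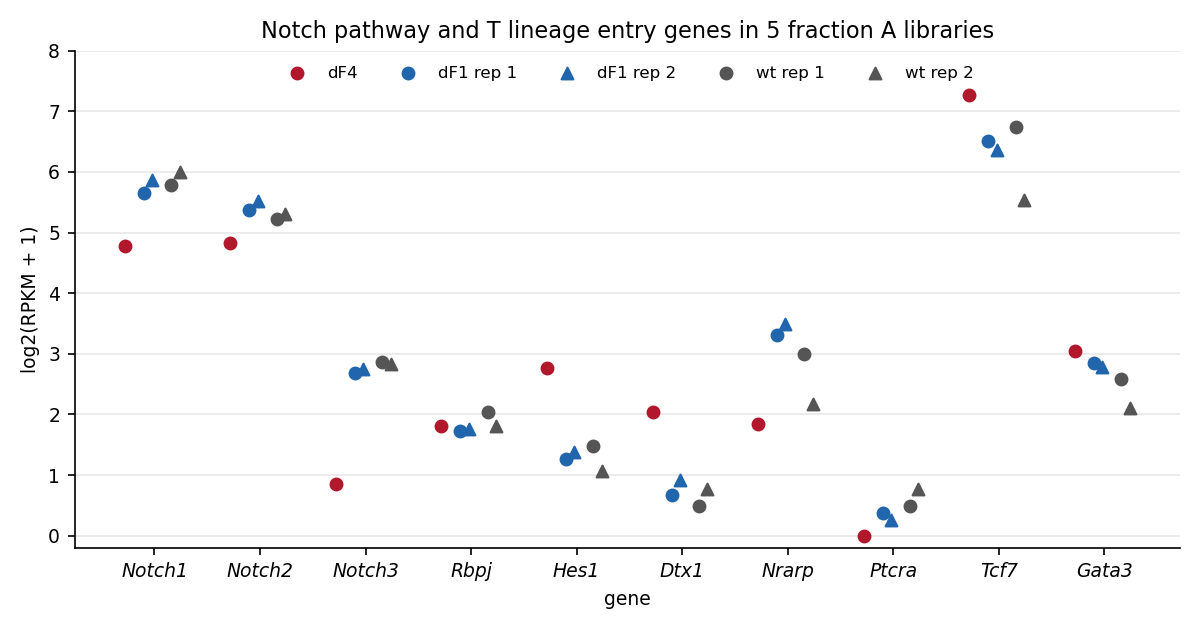
The level of each of the 10 genes, as log2(RPKM + 1) on the vertical axis, in the dF4 library (red), the dF1 libraries (blue) and the wt libraries (grey). Circles are replicate 1 and triangles replicate 2, and Rbpj is shown by the row that was not listed at 0. Tcf7, Notch1 and Notch2 stand highest, Ptcra lowest, and the red dF4 points lie apart from the rest for most genes, while the wt points lie furthest from each other for Tcf7.

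Among the receptors, Notch1 and Notch2 were the abundant ones. Notch1 (NM_008714), the receptor that starts the T cell program, was at 26.4 RPKM in dF4, 49.1 and 57.6 in dF1, and 54.3 and 62.8 in wt. The dF4 library was the lowest, and the dF1 and wt libraries overlapped. The log2 difference of dF1 from wt was -0.13 (SE 0.14, limma adjusted p = 0.879). The dF4 value rested on about 150 reads (95% Poisson interval 22.3 to 31.0 RPKM) and was 2.22-fold below the wt mean of 58.6 ± 6.01 RPKM (SD, n = 2).

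Notch2 (NM_010928), the receptor needed for marginal zone B cells and for some conventional dendritic cells, was at 27.3 RPKM in dF4, 40.4 and 44.8 in dF1, and 36.6 and 38.6 in wt. Both dF1 libraries lay above both wt libraries, by a log2 difference of 0.17 (SE 0.12) that did not pass the test (limma adjusted p = 0.815). The dF4 library was the lowest, at about 172 reads (23.4 to 31.8 RPKM), 1.38-fold below the wt mean. The ratio of Notch1 to Notch2 within a library was 0.967 in dF4, 1.22 and 1.29 in dF1, and 1.48 and 1.63 in wt. The ratio, which was computed after the values had been seen, does not depend on the scaling of a library, and its groups did not overlap. The difference was not tested, and how often the groups fail to overlap for other gene pairs was not counted. For single transcripts dF1 and wt did not overlap in 34.7% of those tested.

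Notch3 (NM_008716), a receptor that Notch1 signaling itself raises in developing T cells, was at 0.8 RPKM in dF4, 5.4 and 5.7 in dF1, and 6.3 and 6.1 in wt. The dF1 libraries lay just below the wt libraries, by a log2 difference of -0.14 (SE 0.14, limma adjusted p = 0.871). The dF4 value came from about 4 reads (0.229 to 2.15 RPKM) and was 7.75-fold lower than in wt (mean 6.2 ± 0.141 RPKM, SD, n = 2), and the upper end of its interval lay below every other library. Its difference from wt was -2.0 on the log2(RPKM + 1) scale, and -2.81 with a pseudocount of 0.1 and -0.95 with a pseudocount of 5. With the last of these Tcf7 (1.07) and Notch1 (-1.01) lay further from wt than Notch3.

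Rbpj, the DNA-binding partner of the Notch intracellular domain, has 3 rows, of which NM_009035 and NM_001080928 were listed at 0 in every library. The third (NM_001080927) was at 2.5 RPKM in dF4, 2.3 and 2.4 in dF1, and 3.1 and 2.5 in wt. The dF4 library lay within the range of the others, with about 8 reads (1.07 to 4.87 RPKM). The dF1 libraries lay below the wt libraries by a log2 difference of -0.18 (SE 0.16, limma adjusted p = 0.855). How reads were divided among transcripts is not given in the sources used here. Of 2216 symbols with several rows and a mean of at least 1 RPKM in the highest, 314 (14.2%) had a single row above 0, as Rbpj did. The gene names supplied also hold 2 Rbpj pseudogenes, so the level of Rbpj is uncertain.

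The promoters of the pathway are shown because TGGGAA, the core shared by Ikaros and RBPJ sites, can be looked for in them. The windows, from RefSeq on GRCm38.p6, run from 250 bases before to 50 after a gene's start and were matched for 9 of the 10 genes, all but Hes1, in 11 windows. TGGGAA on either strand was found in 3 of these 11 windows, and in 25.6% of all 32851 windows. The matches were in Ptcra, at 84 and 32 bases before the start, and in both overlapping windows of Rbpj. GTGGGAA, which contains the shorter core, was in none of the 11 and in 6.38% of all windows. Capitals mark TGGGAA or, for the other strand, TTCCCA, and Notch3 and Nrarp are given as Notch target genes whose windows hold no match.
Ptcra, chr17:46763663-46763962, minus strand: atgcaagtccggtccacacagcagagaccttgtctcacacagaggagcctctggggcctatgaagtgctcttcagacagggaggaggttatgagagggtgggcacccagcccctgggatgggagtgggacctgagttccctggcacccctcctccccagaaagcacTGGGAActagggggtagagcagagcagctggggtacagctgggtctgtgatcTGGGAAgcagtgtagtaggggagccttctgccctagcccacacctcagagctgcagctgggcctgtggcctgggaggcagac
Rbpj, chr5:53590096-53590395, plus strand: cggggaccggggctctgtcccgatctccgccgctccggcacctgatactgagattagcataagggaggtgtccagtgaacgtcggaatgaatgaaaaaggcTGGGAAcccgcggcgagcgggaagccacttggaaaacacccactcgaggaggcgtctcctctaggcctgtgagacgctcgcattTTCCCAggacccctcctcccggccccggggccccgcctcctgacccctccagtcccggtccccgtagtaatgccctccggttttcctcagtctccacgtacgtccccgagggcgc
Notch3, chr17:32166841-32167140, minus strand: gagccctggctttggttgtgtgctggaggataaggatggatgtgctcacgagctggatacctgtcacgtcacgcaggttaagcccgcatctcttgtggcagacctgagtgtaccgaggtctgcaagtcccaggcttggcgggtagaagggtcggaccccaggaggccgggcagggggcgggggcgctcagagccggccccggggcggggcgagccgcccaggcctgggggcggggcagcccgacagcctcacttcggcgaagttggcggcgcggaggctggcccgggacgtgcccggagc
Nrarp, chr2:25180508-25180807, plus strand: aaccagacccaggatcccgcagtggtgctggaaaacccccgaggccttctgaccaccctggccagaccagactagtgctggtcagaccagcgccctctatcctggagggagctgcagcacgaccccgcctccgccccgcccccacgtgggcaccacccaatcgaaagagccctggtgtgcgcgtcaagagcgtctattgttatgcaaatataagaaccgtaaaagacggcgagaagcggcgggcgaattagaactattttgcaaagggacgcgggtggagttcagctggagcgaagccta
A match is a description of these letters and not a bound site.

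The Notch target genes among the members were low in this fraction. Nrarp (NM_025980), which encodes a small ankyrin repeat protein that restrains the Notch complex, was at 2.6 RPKM in dF4, 8.9 and 10.3 in dF1, and 7.0 and 3.5 in wt. Both dF1 libraries exceeded both wt libraries, and wt replicate 2 was the lower of the pair. The log2 difference of dF1 from wt, 0.82 (SE 0.30), was the largest among the members and did not pass (limma adjusted p = 0.682, unadjusted p = 0.0412). It was 1.23 without wt replicate 1 and 0.40 without wt replicate 2. The dF4 value came from about 4 reads, and its interval of 0.709 to 6.66 RPKM included wt replicate 2.

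Hes1 (NM_008235), a transcriptional repressor and the best known Notch target, was at 5.8 RPKM in dF4, 1.4 and 1.6 in dF1, and 1.8 and 1.1 in wt. The dF1 and wt libraries overlapped, with a log2 difference of 0.04 (SE 0.20, limma adjusted p = 0.972). The dF4 library was the highest, 4.0-fold the wt mean of 1.45 ± 0.495 RPKM, on about 5 reads (1.87 to 13.4 RPKM).

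Dtx1 (NM_008052), which encodes the Notch regulator Deltex1, was at 3.1 RPKM in dF4, 0.6 and 0.9 in dF1, and 0.4 and 0.7 in wt. The dF1 and wt libraries overlapped (log2 difference 0.18, SE 0.18, limma adjusted p = 0.871). The dF4 library was 5.64-fold the wt mean of 0.55 ± 0.212 RPKM on about 7 reads, and its interval of 1.27 to 6.49 RPKM lay above all 4 other libraries. The mean of Dtx1 over the wt and dF1 libraries was 0.65 RPKM, so it entered the test only through dF4.

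Ptcra (NM_011195), which encodes the invariant chain of the pre-T cell receptor, was listed at 0 in dF4 and was at 0.3 and 0.2 RPKM in dF1 and 0.4 and 0.7 in wt. The dF1 values were below the wt values and all lay under 1 RPKM, and the row was too low for the test. In the dF4 library 3 reads would amount to 3.91 RPKM for this short transcript, so a difference from the other groups was not detectable at this depth.

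Of the T lineage factors Tcf7 was abundant and Gata3 low. Tcf7 (NM_009331), which encodes TCF-1 and is also used by NK cells and innate lymphoid cells, was at 152.9 RPKM in dF4, 90.1 and 81.2 in dF1, and 106.5 and 45.7 in wt. The dF4 library was the highest, and the wt libraries enclosed the dF1 libraries. The log2 difference of dF1 from wt was 0.29 (SE 0.40, limma adjusted p = 0.906), and it was 0.89 without wt replicate 1 and -0.31 without wt replicate 2. The wt libraries differed by 1.20 on the log2 scale, a gap that 1.23% of tested transcripts matched or exceeded. The dF4 value rested on about 204 reads (133.0 to 176.0 RPKM) and was 2.01-fold the wt mean of 76.1 ± 43.0 RPKM. On the log2 scale it was 1.72 above wt replicate 2 and 0.52 above wt replicate 1.

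Gata3 (NM_008091), a factor of T cells and type 2 innate lymphoid cells, was at 7.3 RPKM in dF4, 6.2 and 5.9 in dF1, and 5.0 and 3.3 in wt. Both dF1 libraries were above both wt libraries, by a log2 difference of 0.47 (SE 0.21) that did not pass (limma adjusted p = 0.730). It was 0.71 without wt replicate 1 and 0.23 without wt replicate 2. The dF4 value came from about 14 reads, with an interval of 3.98 to 12.2 RPKM that included the dF1 libraries and wt replicate 1.

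Of the 9 tested members 6 had the lower of their wt values in replicate 2, with the widest log2 gaps for Tcf7 (1.20), Nrarp (0.83) and Gata3 (0.48). Notch1, Notch2 and Dtx1 had it in replicate 1, and the share of all tested transcripts lower in replicate 2 was not counted. The summed NK and T cell markers were also lower in wt replicate 2. So were the sums for early B cells, monocytes (233.8 and 123.0 RPKM in wt) and conventional dendritic cells (972.7 and 870.3). Some markers of these lists were higher in wt replicate 2, and they were named after their values were seen. They were Cd6 (T cell), Blnk (early B), Lyz2 and Cd14 (monocyte), and Itgax, Clec9a and Flt3 (conventional dendritic). The sums of the other marker lists were higher in wt replicate 2. The sum of 10 NK cell markers was 859.9 RPKM in dF4, 2230.0 and 2000.0 in dF1, and 1958.0 and 880.3 in wt, and none of the 10 was at 0 in any library. The sum of 10 T cell markers was 392.9 RPKM in dF4, 130.5 and 117.1 in dF1, and 123.9 and 86.9 in wt, with Trat1 alone listed at 0, in dF4. Among these, Cd3d, a chain of the T cell receptor complex, was at 115.5 RPKM in dF4, 31.3 and 29.2 in dF1, and 25 and 15.2 in wt. The dF4 library exceeded all 4 others for 8 of the 10 T cell markers and was below all 4 others for 6 of the 10 NK markers, beside 40.3% of all tested transcripts above and 38.1% below. Of the 8, Bcl11b and Themis averaged under 1 RPKM in the wt and dF1 libraries. The T cell markers include Bcl11b, the factor that fixes the T cell fate after Notch has acted, which was at 6.1 RPKM in dF4, 0.5 and 0.5 in dF1, and 0.5 and 0.4 in wt. The sum of 7 markers of type 2 innate lymphoid cells was 5.6 RPKM in dF4, 28.5 and 23.3 in dF1, and 33.9 and 37.0 in wt, and 4 of the 7 were below 1 RPKM in every library, with Il13 and Il5 listed at 0 throughout. Most of that sum outside dF4 was Il17rb, which was listed at 0 in dF4 and was at 24.9 and 19.7 RPKM in dF1 and 30.1 and 34.5 in wt, while Il1rl1 and Icos were highest in dF4, at 2.0 and 3.6 RPKM. Cd3d, Bcl11b, Themis, Il17rb, Il1rl1 and Icos were named after their values were seen. The part of these markers in the values of Tcf7, Gata3 and Nrarp was not tested.

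**Figure D2:**
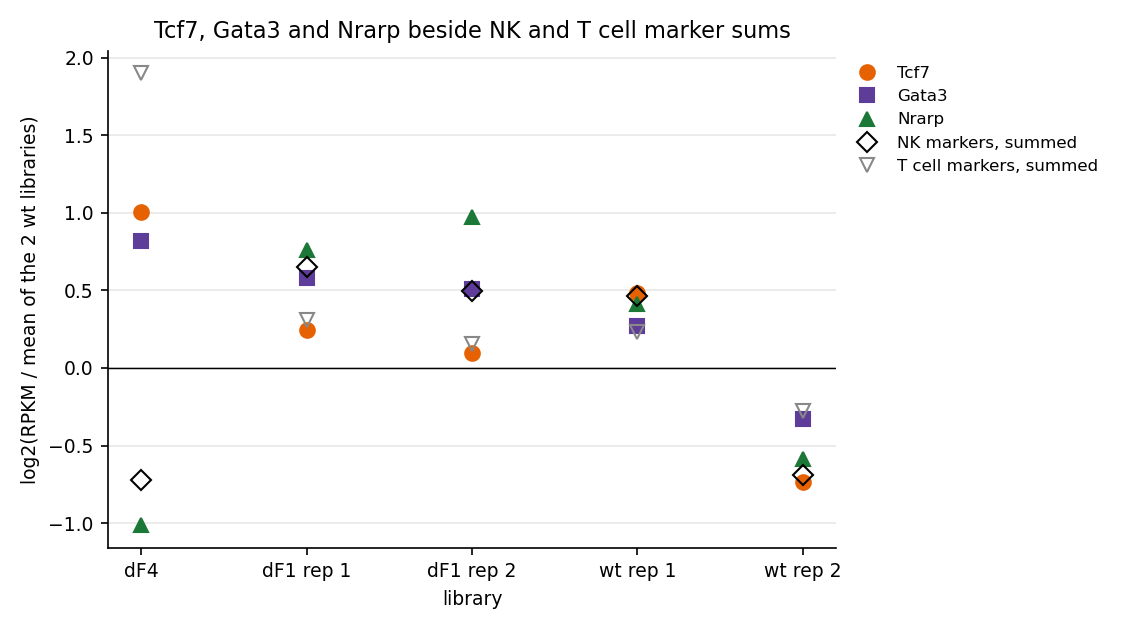
The RPKM of Tcf7, Gata3 and Nrarp (filled) and the summed RPKM of 10 NK and 10 T cell markers (open) in each library, as log2 of the ratio to the mean of the 2 wt libraries. In wt replicate 2 all 5 measures lie below 0, in the dF1 libraries and wt replicate 1 all lie above it, and in dF4 Tcf7, Gata3 and the T cell markers lie above 0 while Nrarp and the NK markers lie below. Because each measure is scaled to the wt mean, a wt replicate 2 below 0 puts wt replicate 1 above it. The genes shown are the tested members with the widest log2 gaps between the wt libraries. Notch1, Notch2 and Dtx1, which were lower in wt replicate 1, are not shown.

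Setting the members side by side, 5 of the 9 tested rows had dF1 libraries wholly on one side of the wt libraries (Notch2, Nrarp and Gata3 higher in dF1, Notch3 and Rbpj lower). Over all tested transcripts the share was 34.7%, with 16.9% higher and 17.9% lower. The median log2 difference of dF1 from wt was 0.17 over the 9 members and 0.01 over all tested transcripts. For dF4 against wt, a size rule stood in for a test: a transcript counted when dF4 lay outside both wt libraries and at least 1 from their mean on the log2 scale, the wt libraries were at most 0.5 apart and the 5 libraries averaged 5 RPKM or more. Of the members 5 had that mean, 3 of these had close wt libraries (Notch1, Notch2 and Gata3), and 1, Notch1, counted as lower, beside 10.4% of 7867 transcripts lower and 7.75% higher. With the required mean at 1 RPKM, 4 members counted (Hes1 and Dtx1 higher, Notch1 and Notch3 lower), beside 11.9% of 10775 transcripts higher and 12.1% lower (24.1% in all), and Dtx1 reached that mean only through dF4. Tcf7, 1.12 above the wt mean on the log2 scale, did not count because the wt libraries lay too far apart, and Notch3 fell short of 5 RPKM with a mean of 4.86. The dF4 library lay outside all 4 others for 8 of the 9 tested rows, all but Rbpj, beside 40.3% of all tested transcripts above and 38.1% below. The median difference of dF4 from wt was -0.11 over the 9 members and 0.02 over all tested transcripts, and it was -0.28 over the 8 members without Dtx1. For all 13 marker lists the dF4 sum also lay outside the other 4 libraries, above them for 8 lists and below for 5. Among those not given above, mature B cell markers summed to 911.2 RPKM in dF4, 332.2 and 363.9 in dF1, and 312.4 and 346.7 in wt, monocyte markers to 1383.0 in dF4, 272.0 and 249.7 in dF1, and 233.8 and 123.0 in wt, erythroid markers to 734.5 in dF4, 71.6 and 93.5 in dF1, and 121.2 and 188.6 in wt, and basophil and mast cell markers to 516.0 in dF4, 7.8 and 17.2 in dF1, and 4.0 and 14.5 in wt. Fraction A progenitor markers summed to 879.2 RPKM in dF4, 1473.0 and 1570.0 in dF1, and 2004.0 and 2049.0 in wt. Of these markers dF4 was above all 4 others for 1 and below for 5. Stroma and endothelium markers summed to 119.8 RPKM in dF4, 143.5 and 149.6 in dF1, and 134.3 and 144.9 in wt. Of the tested ones dF4 was above for 2 and below for 3. Of the monocyte sum in dF4, Lyz2 made up 1124.3 RPKM, and Ccr2 and Ly6c2 lay within the range of the other libraries. The erythroid marker Tfrc was at 36.9 RPKM in dF4, 65.3 and 66.9 in dF1, and 111.5 and 152.6 in wt. The other monocyte and erythroid markers were highest in dF4. These genes were named after their values were seen. The marker lists differ in length, and the part of the markers in the dF4 values was not tested. All T cell markers but Lat and Cd6 are also in the T lineage list described below, so the counts for both lists rest in part on the same genes. The dF1 and dF4 differences share the wt libraries.

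**Figure D3:**
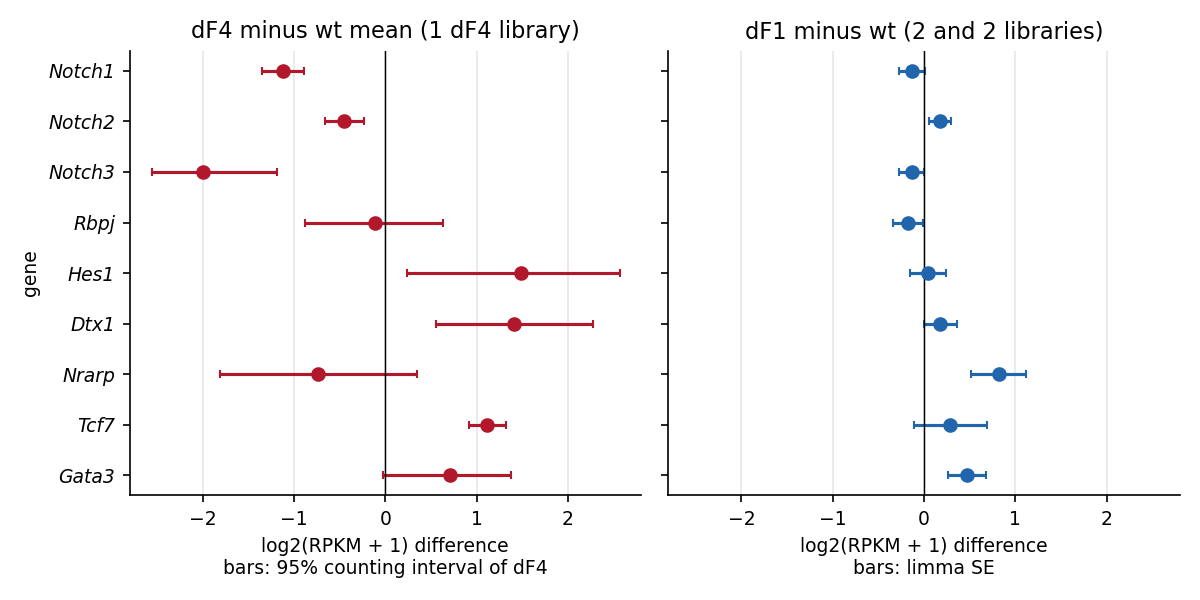
Differences from wt on the log2(RPKM + 1) scale for the 9 tested members, with dF4 on the left (bars, 95% Poisson interval of the dF4 reads) and dF1 on the right (bars, limma SE). The dF4 points run from -2.0 for Notch3 to 1.49 for Hes1, and the dF1 points from -0.18 for Rbpj to 0.82 for Nrarp.

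Ranked by level in dF4, the order was Tcf7, Notch2, Notch1, Gata3, Hes1, Dtx1, Nrarp, Rbpj, Notch3 and Ptcra, and the counting intervals of Notch2 and Notch1 overlapped, as did those of each neighbouring pair from Gata3 downward. In dF1 it was Tcf7 (mean 85.7 RPKM), Notch1 (53.4), Notch2 (42.6), Nrarp (9.6), Gata3 (6.05), Notch3 (5.55), Rbpj (2.35), Hes1 (1.5), Dtx1 (0.75) and Ptcra (0.25), and no neighbours overlapped in their 2 libraries. In wt it was Tcf7 (76.1), Notch1 (58.6), Notch2 (37.6), Notch3 (6.2), Nrarp (5.25), Gata3 (4.15), Rbpj (2.8), Hes1 (1.45), and Dtx1 and Ptcra (0.55 each). In wt the libraries overlapped between Tcf7 and Notch1, between Notch3 and Nrarp, between Nrarp and Gata3 and between Dtx1 and Ptcra.

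The rest of the pathway was read from lists with 75 genes in the table, of which 61 were tested between dF1 and wt. Of these 0 of 61 passed (lowest limma adjusted p = 0.439), and 6 of 61 (9.84%, beside 7.16% of all transcripts) had an unadjusted p under 0.05 (Heyl, Tle1, Tox and Cd5 lower in dF1, Myc and Cd3e higher), genes named after their values were seen. The estimate was above 0 for 41 and below 0 for 20, with a median of 0.07, beside a median of 0.01 over all tested transcripts. T lineage genes made up 13 of the 41 and 5 of the 20, and the share of all tested transcripts above 0 was not counted. In dF4, 4 of the 33 genes to which the size rule could be applied counted as higher than wt (Numb, Cd3e, Cd5 and Zbtb7b) and 2 as lower (Dtx2 and Ccnd1), beside 7.75% of 7867 transcripts higher and 10.4% lower. Together the 6 are near the share of all transcripts, 18.2%, and these genes too were named after their values were seen.

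Of the ligands, 3 of 6 were tested and 0 passed. Dll4, the ligand that acts in the thymus, was listed at 0 in dF4 and was at 3.8 and 3.3 RPKM in dF1 and 4.0 and 4.1 in wt. Dll1 was listed at 0 in dF4 and was at 2.5 and 1.9 RPKM in dF1 and 2.2 and 1.3 in wt, and Jag2 was at 0.6 RPKM in dF4, 1.2 and 1.9 in dF1, and 1.3 and 1.5 in wt. In dF4 3 reads would amount to 1.45 RPKM for Dll4, which is below all 4 other values, and to 1.46 for Dll1. Jag1 and Dll3 were at 0.1 RPKM or listed at 0 in every library.

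Of 11 genes listed for receptor processing, 8 were tested and 0 passed, with a median dF1 difference of 0.02, and the other 3 averaged below 1 RPKM. The list holds the machinery that cuts the receptors and also Notch4, itself a receptor and not tested. Notch4 was at 0.8 RPKM in dF4, 0.1 and 0.1 in dF1, and 0.0 and 0.2 in wt. Ncstn, a gamma-secretase subunit, was at 45.7 RPKM in dF4, 54.6 and 56.2 in dF1, and 49.8 and 56.9 in wt. Adam10, the protease of the first cut, was at 44.7 RPKM in dF4, 44.6 and 40.9 in dF1, and 50.8 and 42.2 in wt.

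Of the glycosyltransferases that tune ligand binding, 5 of 5 were tested and 0 passed. Lfng, which favours Delta ligands, was at 40.2 RPKM in dF4, 49.5 and 67.6 in dF1, and 45.7 and 25.4 in wt. Its dF1 libraries lay above its wt libraries, by 0.75 on the log2 scale (SE 0.31, limma adjusted p = 0.710). Mfng was at 36.4 RPKM in dF4, 37.3 and 45.7 in dF1, and 38.2 and 37.2 in wt, and Poglut1 lay between 9.1 and 13.2 in every library.

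The cofactors of RBPJ numbered 12 tested of 14, of which 0 passed. The corepressor Tle3 was at 35.9 RPKM in dF4, 57.8 and 56.1 in dF1, and 62.1 and 53.4 in wt. Ncor1, another corepressor, was at 50 RPKM in dF4, 45.8 and 49.8 in dF1, and 49.1 and 44.6 in wt. Snw1, also called SKIP, was at 30.2 RPKM in dF4, 50.8 and 50.3 in dF1, and 51.8 and 41.4 in wt. For trafficking and turnover, 10 of 11 were tested and 0 passed. Dtx3 was at 44.8 RPKM in dF4, 33.8 and 40.9 in dF1, and 36.7 and 61.7 in wt, and Dtx3l at 23.4 in dF4, 39.0 and 35.1 in dF1, and 33 and 27.2 in wt. Dtx2, a relative of Dtx1, was at 11.1 RPKM in dF4, 30.8 and 39.2 in dF1, and 29.0 and 36.0 in wt. Numb, which inhibits Notch, was at 24.6 RPKM in dF4, 8.6 and 8.7 in dF1, and 8.1 and 7.3 in wt.

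Among the other tested genes listed here with the Notch targets, Myc in dF4 lay above and Ccnd1 and Il2ra below all other libraries. Hes6 and Heyl lay within their range. Of all tested transcripts 40.3% lay above and 38.1% below. Il2ra, named after its values were seen, was at 0.7 RPKM in dF4 on about 2 reads, 2.8 and 1.7 in dF1, and 1.6 and 1.5 in wt. Of 10 listed, 5 were tested and 0 passed. Ccnd1, which encodes cyclin D1, was at 6.6 RPKM in dF4, 120.4 and 149.3 in dF1, and 123.4 and 139.3 in wt. Myc was at 30.7 RPKM in dF4, 21.7 and 25.5 in dF1, and 16.6 and 8.5 in wt, with a dF1 difference of 0.92 (SE 0.31, limma adjusted p = 0.660). Hes6, a relative of Hes1 that opposes it, was at 76.6 RPKM in dF4, 67.5 and 91.8 in dF1, and 85.6 and 95.6 in wt. Heyl was at 1.5 RPKM in dF4, 1.1 and 0.7 in dF1, and 3.8 and 2.2 in wt, a dF1 difference of -1.05 (SE 0.25, limma adjusted p = 0.487). Hes5, Hes7, Hey1 and Hey2 were at 0.5 RPKM or below in every library.

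All 18 listed T lineage genes were tested and 0 passed, with a median dF1 difference of 0.17 and a median dF4 difference of 0.83. Thy1, a surface protein of T cells and some progenitors, was at 197.5 RPKM in dF4, 171.3 and 167.3 in dF1, and 162.1 and 82.5 in wt. The kinase Lck was at 206.3 RPKM in dF4, 158.1 and 136.5 in dF1, and 148.6 and 83.4 in wt. Ets1 was at 131.9 RPKM in dF4, 138.2 and 130.0 in dF1, and 162.1 and 89.1 in wt. For each of these 3 genes wt replicate 2 was the lowest library, as it was for Tcf7. In dF4 11 of the 18 genes lay above all 4 other libraries and 3 below, beside 40.3% and 38.1% of all tested transcripts, whose median dF4 difference was 0.02. Of the 11, Bcl11b and Themis reached a mean of 1 RPKM only through dF4. Of the 3, Trat1 was listed at 0 in dF4, where 3 reads would amount to 7.29 RPKM for it, above every other library. Over the 16 genes with that mean in the wt and dF1 libraries, a filter chosen after the data were seen, 9 lay above and 3 below with a median of 0.79, beside 37.1% above and 40.6% below of 11821 transcripts with a median of -0.03.

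**Figure D4:**
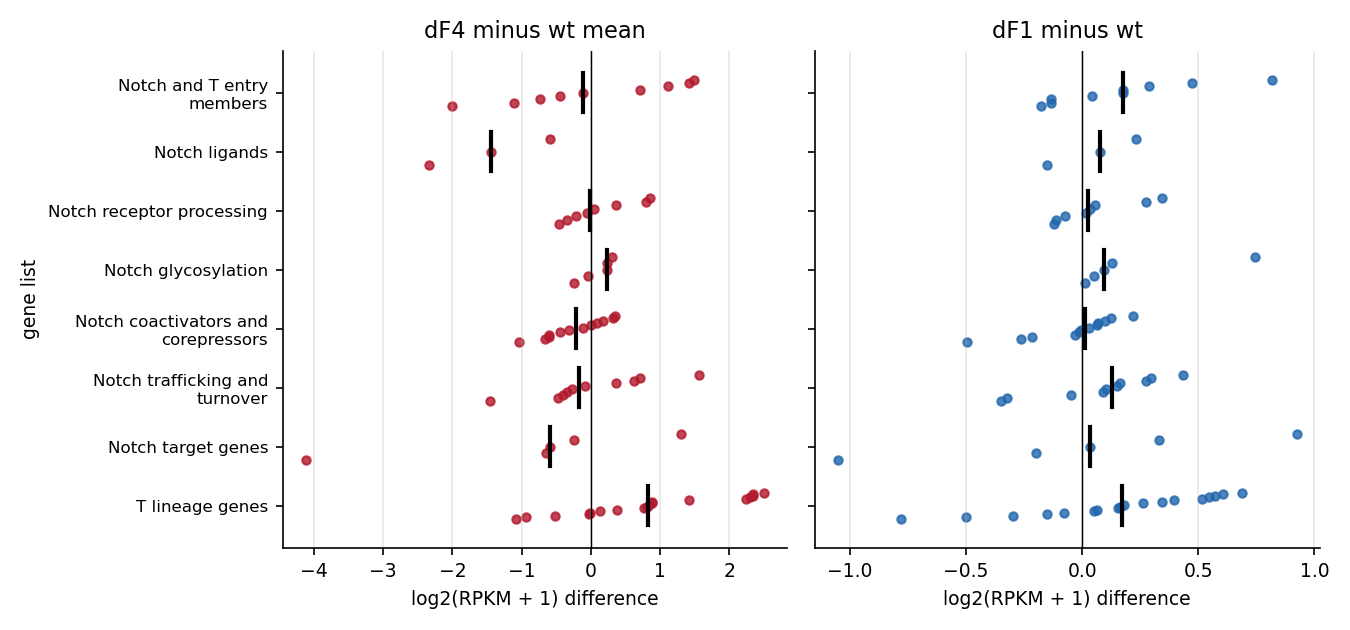
Differences from wt on the log2(RPKM + 1) scale for the tested genes of each list, dF4 on the left and dF1 on the right, on axes of different range. Each point is a gene and each black bar the median of its list. The T lineage list has its dF4 median at 0.83 and its dF1 median at 0.17, and the lowest dF4 point is Ccnd1 at -4.12.

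For the 6 tested members that spanned at least 1 on the log2 scale, the transcripts of the most similar course over the 5 libraries were found by the root mean square difference after centring. Each such course rests on 5 libraries and for most members on where dF4 lay. For Nrarp they were the NK receptor Ncr1 (difference 0.141), at 61.6 RPKM in dF4, 184.6 and 202.0 in dF1, and 168.7 and 69.8 in wt, then Ccl5 (0.151) and Banp (0.172). For Tcf7 they were Sgk1 (0.0988), Crtam (0.122) and Itm2a (0.126). For Notch1 they were Rbmx, Galk1 and Ddx51 (0.0379 to 0.0481), for Notch3 Qrsl1, 1110018J18Rik and As3mt (0.0387 to 0.0433), for Hes1 Scp2, Ccdc125 and Timm9 (0.0406 to 0.0427), and for Dtx1 Sec14l1, Klf7 and Mrps28 (0.0696 to 0.077).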

How the data were processed

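The deposited table gives RPKM per RefSeq transcript, per the file headers. TopHat, bedtools and the build mm9 are named in the submitters' processing notes, with no version. Counting rules, strand use and the treatment of reads with several map positions are not stated there. By the supplied annotation (GENCODE, GRCm38), exons of Notch1, Notch3, Nrarp and Gata3 overlap genes on the opposite strand, and those of Notch2 and Gata3 a gene on the same strand, whose reads cannot be told apart. In all 1 line named no gene and was left out.

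Tests were two-sided fits of limma 3.58.1 (R 4.3.3, moderated variances with a trend, threshold 0.05) to log2(RPKM + 1), which understates changes of low transcripts, with the 2 dF1 and 2 wt libraries. The fit was checked on simulated data. The dF4 library was described without a test. Its values times transcript length were whole multiples of 1.68 RPM, the worth of a read, within 0.1 read, for 81.4% of 1204 low values. No such step was used for the other libraries. No per-sample column was left unused.

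Lists hold each gene by its transcript of highest mean. From each list the 3 genes with the highest mean were named, others as stated, and 1 gene so chosen is not reported here. The members and lists were chosen with earlier results of these data known. Alternatives were other pseudocounts, filters, scalings, variance models, the replicate number as a block and leaving out each library.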

Additional observations from a re-analysis of the deposited data

How the results depend on the processing

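With the filter at 5 RPKM limma called 25 transcripts (13 higher, 12 lower in dF1) and with robust variances 33 (16 and 17), against 0 as reported. None was a member in these or any other alternative run (0 of up to 10 members tested). Every leave-one-out fit also called 0, in fits where the lone sample is assumed to vary like the other group. Leaving out a library moved the dF1 difference of Tcf7 between -0.31 and 0.89 and that of Hes1 between -0.16 and 0.25, while the other 7 members kept their direction under every alternative. With the replicate block limma called 0 transcripts and 0 members. The deviations of equal replicate numbers correlated at 0.30 over 12213 transcripts, and the labels do not say that the numbers mark shared mice or days.

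For dF4 the size rule counted 1428 transcripts and 1 member. With the mean at 1 RPKM it counted 2593 and 4, without a limit between the wt libraries 2 members (Notch1 and Tcf7), and against a single wt library 1779 to 1927 transcripts and 2 members each (Notch1 with Tcf7 without wt replicate 1, Notch1 with Nrarp without wt replicate 2). Notch1 counted as lower in all of these. Reads limit dF4: of the 10 genes, 7 rested on 14 reads or fewer.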
